A study of Mus musculus with 2 samples.

Results

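Complement genes were described across the cell classes of normal and fibrotic mouse liver. The 36 genes were chosen by name as components, regulators and receptors of the pathway, not by a measured value. Of these, 35 are listed in both libraries, among 19219 genes that both list. Cfd, which encodes factor D of the alternative pathway, was not analysed here. The samples were liver non-parenchymal cells (NPCs) of 2 male C57BL/6 mice aged 8 weeks, 1 mouse and 1 scRNA-seq library (10x 3′ chemistry) per condition. The fibrosis mouse had received CCl4, a toxin that injures hepatocytes, in olive oil, and the normal mouse olive oil alone, both by intraperitoneal injection 2 times a week for 6 weeks. As each condition had 1 library, the conditions cannot be tested against each other, and every difference given below is one between 2 mice.

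Complement is a cascade of plasma proteins that tags microbes and debris. The classical pathway starts when C1q binds antibody or dying cells, C1r activates C1s, and C1s cleaves C4 and C2. The lectin pathway starts when collectins or ficolins bind sugars and MASP enzymes cleave the same substrates, and the alternative pathway amplifies both through factors B, D and properdin. All 3 pathways cleave C3, release peptides that act on C3a and C5a receptors, and can end in a membrane pore of C5b to C9, while inhibitors in plasma and on cell surfaces hold the cascade in check. Hepatocytes are known as the main source of the plasma proteins, and macrophages as a source of C1q.

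The normal library held 8130 cells and 44062632 UMIs (unique molecular identifiers, 1 per captured transcript), and the fibrosis library 6437 cells and 53288463 UMIs. After the filter of the methods, 7471 and 6132 cells were kept, and 15 cell barcodes occurred in both libraries. The clusters named from marker lists gave 489 normal and 719 fibrosis macrophage-like cells, 210 and 567 mesenchymal cells, 2303 and 1495 endothelial-like cells and 729 and 146 hepatocyte-like cells. The mesenchymal class comprised cells like hepatic stellate cells and myofibroblasts (HSC/MF), portal fibroblasts (PF) and mesothelial cells, and the endothelial class comprised cells like liver sinusoidal endothelial cells (LSECs) and vessel endothelium. Different clusters held the macrophage class in the libraries: Kupffer-cell-like clusters of 326 and 163 cells in normal liver, and 1 recruited-macrophage-like cluster of 719 cells in fibrosis. In fibrosis the mean UMIs per cell were 2.63 times the normal value in macrophage-like, 2.05 times in mesenchymal, 1.46 times in endothelial-like and 2.13 times in hepatocyte-like cells. The hepatocyte value rests on a shallow normal cluster of 596 cells, and against the deeper normal cluster of 133 cells it was 0.699 times. Levels below are a gene's UMIs for every 10000 UMIs counted in the class, so a level can be lower while the UMIs per cell are higher, and the ratio per cell is then given beside the ratio of levels. For several members in hepatocyte-like cells the ratio per cell against the deeper normal cluster is also given, as it can turn the direction. Intervals are 95% and cover counting error only, not the spread between cells or mice. Levels are not compared between genes.

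Both libraries held RNA outside its cell of origin, and in different amounts. Lymphoid cells (1613 normal and 1333 fibrosis cells, B-cell-like or NK/T-cell-like), which do not make albumin, held Alb at 99.8 UMIs per 10000 in normal liver and 11.0 in fibrosis. The 26 hepatocyte markers, none at 0, summed to 427 UMIs per 10000 in normal lymphoid cells and 42.6 in fibrosis. The reverse held for macrophage genes: the 14 Kupffer-cell markers, none at 0, summed to 8.09 and 28.6 in the same cells, and the 15 recruited-macrophage markers, none at 0, to 5.50 and 24.2. The 25 HSC/MF markers, none at 0, summed to 2.16 and 17.9. Lymphoid cells were therefore used as the background of each library, and the level of a member is set beside theirs. As cells of the deeper classes held less Alb per 10000 UMIs than lymphoid cells, UMIs per 1000 Alb UMIs are given as another measure where they bear on a member. Where lymphoid cells make a member themselves, as Cr2 in B cells, their level is no background. For Cd55 they held 34.0 UMIs per 1000 Alb UMIs in normal liver and 486 in fibrosis. Macrophage-like cells held 20.7 and 217, while mesenchymal and endothelial-like cells held more than lymphoid cells. The lymphoid cells' own part was not tested.

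The members were spread over all 4 classes. In the normal library, 8 of the 34 members with at least 20 UMIs were highest in macrophage-like cells (24.9% of all 13686 genes had that place), 9 in mesenchymal cells (28.8%), 4 in endothelial-like cells (31.0%) and 13 in hepatocyte-like cells (15.2%). The fibrosis counts were 8 of 35 (20.1% of 14363 genes), 10 (26.5%), 4 (30.1%) and 13 (23.4%). The macrophage and mesenchymal counts lay near the share of all genes, the hepatocyte count above it and the endothelial count below it. All 3 C1q chains, Cfp, C6, Fcna, C3ar1 and C5ar1 were highest in macrophage-like cells in both libraries. C1ra, C1s1, C2, C3, Serping1, Masp1, Colec10, Colec11 and Colec12 were highest in mesenchymal cells in both, and Cd55, Cd59a, Cd93 and Cr1l in endothelial-like cells. C4b was highest in hepatocyte-like cells of the normal and in mesenchymal cells of the fibrosis library. Cr2 came to hepatocyte-like cells of the fibrosis library with 4 UMIs, under its lymphoid level. The members and the other pathway genes were left out of the clustering and of the marker lists.

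**Figure D1:**
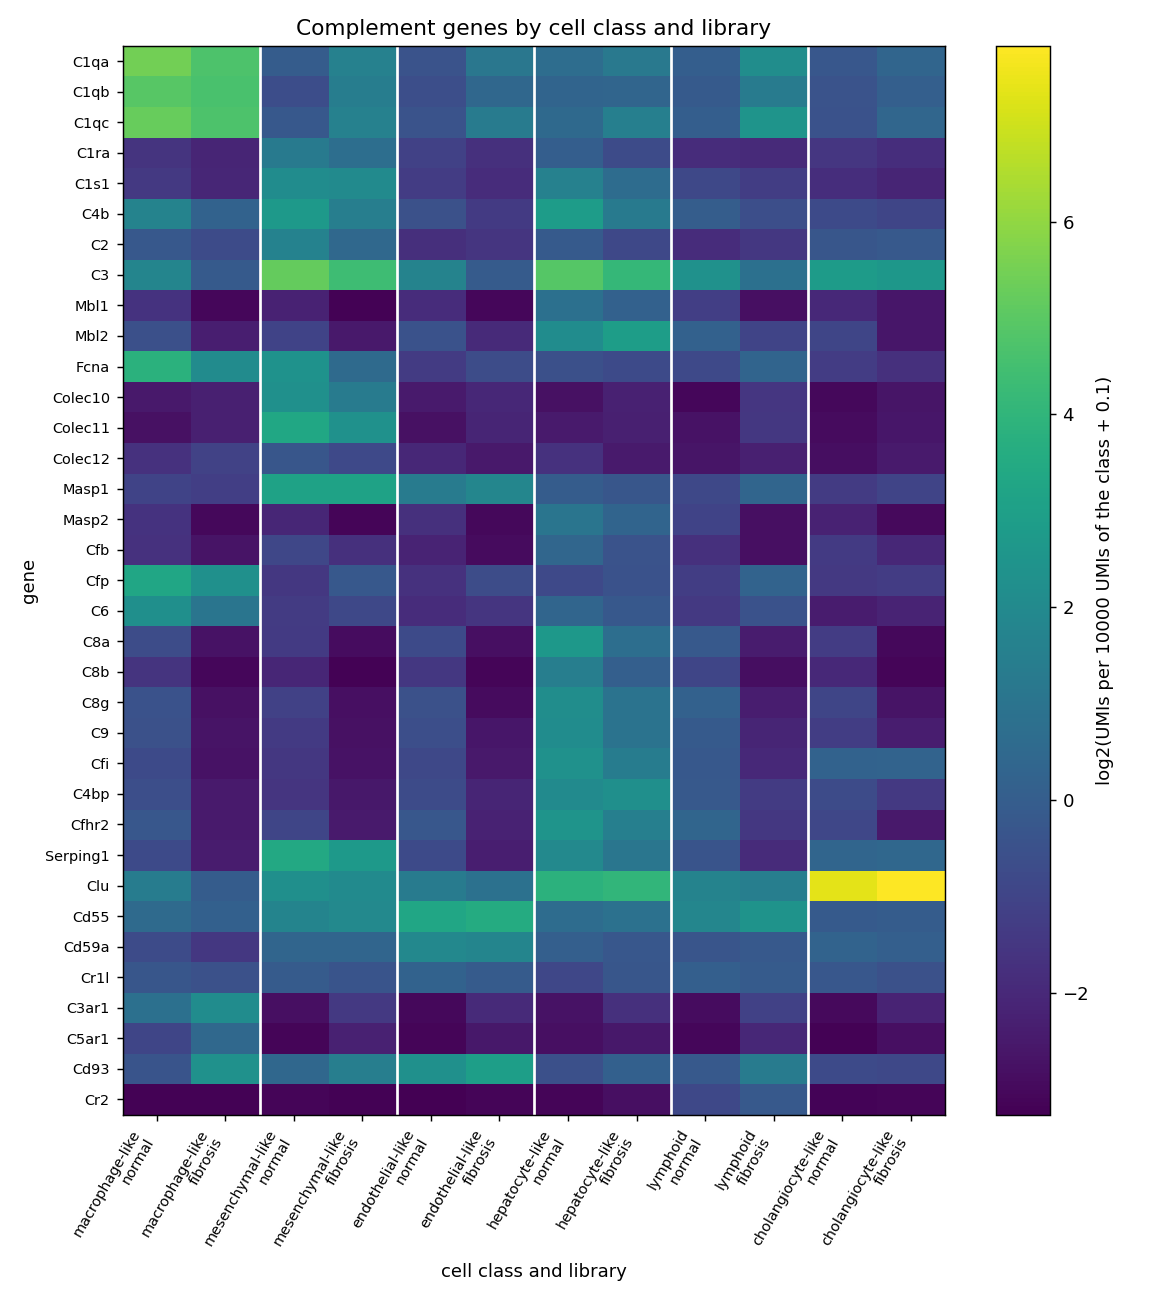
Level of each complement gene (rows, by role) in each cell class of the normal and fibrosis libraries (columns), as log2(UMIs per 10000 UMIs of the class + 0.1). C1q, Cfp and Fcna are brightest in macrophage-like cells, and Colec10, Colec11 and Masp1 in mesenchymal cells. C8 and C9 are brightest in hepatocyte-like cells, and Clu in cholangiocyte-like cells (164 and 226 UMIs per 10000).

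The 3 chains of C1q, the recognition molecule of the classical pathway, made up a macrophage signature in both libraries. The level of C1qa in macrophage-like cells was 43.9 UMIs per 10000 in normal liver and 26.2 in fibrosis, a ratio of 0.597 (0.584 to 0.610). C1qb stood at 30.6 and 24.7 (ratio 0.810, 0.789 to 0.830). C1qc stood at 38.1 and 26.2 (ratio 0.688, 0.672 to 0.704). In fibrosis all 3 levels stood lower per 10000 UMIs, yet each cell held more of their UMIs, with ratios per cell of 1.57, 2.13 and 1.81. C1qa in macrophage-like cells was 46.2 times the lymphoid level in normal liver and 5.87 times in fibrosis. The lymphoid level itself went from 0.952 to 4.47, while the macrophage level went from 43.9 to 26.2. After each cell was thinned to 1000 UMIs, C1qa was found in 91.2% of normal (88.3 to 93.6) and 80.0% of fibrosis macrophage-like cells (76.9 to 82.8), beside 10.1% and 42.5% of lymphoid cells. Thinning left out 2 normal and 26 fibrosis lymphoid cells. Without thinning the macrophage shares were 96.3% and 98.7%, and the lymphoid shares 28.5% and 71.2%. Median UMIs per cell were 4928 and 12112 in macrophage-like and 3183 and 2229 in lymphoid cells.

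C1q RNA was also found in the other classes, at far lower levels. In mesenchymal cells C1qa was 0.869 UMIs per 10000 in normal liver and 2.97 in fibrosis, a ratio of 3.42, beside a ratio of 4.70 in lymphoid cells. These levels were 0.913 and 0.665 times the lymphoid ones, but per 1000 Alb UMIs mesenchymal C1qa stood above lymphoid C1qa, at 25.1 against 9.53 in normal liver and 934 against 408 in fibrosis. C1qb in mesenchymal cells, at 0.537 and 2.60, was 0.647 and 1.06 times the lymphoid level. In endothelial-like cells C1qa was 0.639 and 2.12, or 0.671 and 0.474 times the lymphoid level, but 10.3 and 394 per 1000 Alb UMIs, within counting error of the lymphoid values. The measures thus differed for both classes. The summed Kupffer-cell markers went from 11.1 to 19.0 in mesenchymal and from 24.0 to 30.4 in endothelial-like cells, and the recruited-macrophage markers from 9.73 to 24.3 and from 8.01 to 16.6. The part of free RNA or of macrophages within these classes in the C1q ratios was not tested. The fibrosis mesenchymal class held a sub-cluster of 67 recruited-macrophage-like cells among its 567.

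The C1q genes lie side by side on the minus strand of chromosome 4 (GRCm38): C1qb at chr4:136880129-136886187, C1qc at chr4:136889804-136893065 and C1qa at chr4:136895917-136898803. The 250 bases before the RefSeq start of C1qb, at chr4:136886201-136886450 (build GRCm38.p6, minus strand), are shown. This gene was among those highest in macrophage-like cells in both libraries, and its window lies wholly before the GENCODE gene. It also holds the letters searched, which not every member's window does. Capitals mark the letters GGAAGT, here on the opposite strand and so read as ACTTCC, 53 bases before the start.
C1qb: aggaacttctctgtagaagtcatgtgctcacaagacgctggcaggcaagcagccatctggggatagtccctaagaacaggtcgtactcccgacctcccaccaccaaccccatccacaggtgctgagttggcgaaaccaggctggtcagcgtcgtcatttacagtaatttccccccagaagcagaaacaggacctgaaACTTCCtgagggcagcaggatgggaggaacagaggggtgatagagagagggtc
These letters occur in sites of ETS factors such as PU.1, a regulator of myeloid genes, and were searched on both strands. They are present in 4 of the 7 macrophage-highest members with an entry (C1qb, C1qc, C5ar1 and Fcna, but not C3ar1, C6 and Cfp) and in 19.7% of all 32851 windows of that length. The match is a description of the letters, and binding was not measured.

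The proteases that C1q activates were highest in mesenchymal cells. C1ra, the murine C1r, had a level in mesenchymal cells of 2.33 in normal liver and 1.56 in fibrosis (ratio 0.672, 0.610 to 0.740, and 1.38 per cell). C1s1, the murine C1s, stood at 4.32 and 4.05 there (ratio 0.937, 0.875 to 1.0, and 1.92 per cell). Both exceeded the lymphoid background of their library in mesenchymal cells, C1ra by 13.3 and 9.92 times and C1s1 by 9.53 and 12.5 times. In macrophage-like cells C1s1 was at 0.614 and 0.424 times the lymphoid level, and C1ra at 1.33 (0.954 to 1.84) and 0.843 times (0.621 to 1.16). Per 1000 Alb UMIs macrophage C1ra stood above lymphoid C1ra, at 3.51 against 1.75 in normal liver and 29.1 against 14.4 in fibrosis, so the measures differed for it. Hepatocyte-like cells also held C1s1, at 2.96 and 1.48 (ratio 0.50 per 10000 UMIs, and 1.06 per cell, or 0.242 against the deeper cluster). Reads of C1ra and C1rb, and of C1s1 and C1s2, can be split between near-identical copies, but C1rb and C1s2 had at most 7 UMIs in a library.

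C4b and C2, whose products form the C3 convertase of the classical and lectin pathways, had lower levels in fibrosis in the classes that held most of them. The C4b level was 7.18 UMIs per 10000 in normal and 2.33 in fibrosis hepatocyte-like cells (ratio 0.324, 0.280 to 0.373). In mesenchymal cells it was 6.34 and 2.72 (ratio 0.428), and in macrophage-like cells 3.18 and 1.06 (ratio 0.332). The ratios per cell were 0.690 (0.149 against the deeper normal cluster), 0.880 and 0.875, and the ratio in lymphoid cells was 0.620. The macrophage ratio compares unlike clusters: within Kupffer-cell-like cells C4b was 3.27 and 2.92 (ratio 0.894, and 1.14 per cell). C2 was highest in mesenchymal cells, with levels of 3.05 and 1.28 (ratio 0.419, 0.384 to 0.459, and 0.861 per cell), whereas its lymphoid ratio was 1.45. Reads of C4b can be shared with its near copy C4a, and C2 (chr17:34862604-34898265) lies next to Cfb (chr17:34856374-34862518) on the minus strand, so the split of their reads is uncertain.

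C3, on which all pathways converge, was abundant outside hepatocytes. Its level in mesenchymal cells was 36.3 UMIs per 10000 in normal liver and 20.4 in fibrosis (ratio 0.562, 0.549 to 0.576, and 1.15 per cell). In hepatocyte-like cells it was 29.7 and 17.3 (ratio 0.583, 0.553 to 0.616, and 1.24 per cell, or 0.287 against the deeper normal cluster). Mesenchymal C3 exceeded the lymphoid level 7.23 times in normal liver and 12.3 times in fibrosis, whereas C3 in macrophage-like cells, at 3.34 and 0.829, was below it (0.664 and 0.499 times). Per 1000 Alb UMIs macrophage C3 was level with lymphoid C3 in normal liver (50.3 and 50.3) and above it in fibrosis (181 against 152), so the measures differed. Most of the mesenchymal C3 came from few cells: the 44 normal mesothelial-like cells held 6710 of 8320 UMIs, and the 48 fibrosis mesothelial-like cells 19343 of 25931.

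Among the lectin-pathway recognition molecules, the mannose-binding lectins Mbl1 and Mbl2 and the collectins Colec10 and Colec11 were highest in separate classes. Mbl1 in hepatocyte-like cells was 1.66 UMIs per 10000 in normal liver and 1.02 in fibrosis (ratio 0.617, 0.490 to 0.772, and 1.31 per cell, or 0.315 against the deeper cluster). Mbl2 was 4.21 and 7.48 (ratio 1.78, 1.61 to 1.96), the only member of the liver-secreted group below to stand higher in fibrosis apart from C4bp. The 3 cells with the most Mbl2 UMIs held 28.5% of them in the fibrosis hepatocyte-like cells, against 8.27% in normal. Against the deeper normal cluster the Mbl2 ratio was 1.43, and 0.998 per cell.

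Colec10 (collectin liver 1) and Colec11 (collectin kidney 1), which combine into 1 circulating lectin, were mesenchymal. Colec11 stood at 10.1 in normal and 4.91 in fibrosis mesenchymal cells (ratio 0.486, 0.463 to 0.510, and 0.997 per cell). Colec10 stood at 4.90 and 2.49 (ratio 0.507, 0.473 to 0.543, and 1.04 per cell). Their excess over lymphoid cells was 198 and 248 times in normal liver and 18.9 and 9.84 times in fibrosis. Thinned to 1000 UMIs, 43.3% of normal (36.5 to 50.3) and 34.6% of fibrosis mesenchymal cells (30.7 to 38.7) had a Colec11 UMI, against 0.621% and 3.29% of lymphoid cells. Colec12, a membrane scavenger receptor of the same family, was low, at 0.720 and 0.464 in mesenchymal cells (ratio 0.644, and 1.32 per cell).

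Fcna encodes ficolin A, a plasma lectin that activates MASP enzymes. Its level in macrophage-like cells was 13.9 in normal liver and 4.18 in fibrosis (ratio 0.301, 0.288 to 0.315, and 0.792 per cell). In mesenchymal cells it was 5.07 and 1.37 (ratio 0.270, 0.25 to 0.291, and 0.554 per cell). The lymphoid ratio ran the other way, at 2.40. Normal mesenchymal Fcna was 10.6 times the lymphoid level, and fibrosis mesenchymal Fcna 1.19 times. Per 1000 Alb UMIs it stood further above lymphoid Fcna, at 147 against 4.77 in normal liver and 430 against 105 in fibrosis.

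The MASP proteases differed from each other. Masp1 was a mesenchymal and endothelial gene, with a mesenchymal level of 8.71 in normal liver and 8.72 in fibrosis (ratio 1.0, 0.955 to 1.05). In endothelial-like cells Masp1 stood at 2.41 and 3.44 (ratio 1.42, 1.36 to 1.49), above the lymphoid level by 5.24 and 2.93 times, while its lymphoid ratio was 2.55. Masp2 was found at 1.94 and 1.14 in hepatocyte-like cells (ratio 0.588, 0.472 to 0.726, and 1.25 per cell, or 0.286 against the deeper cluster) and under the lymphoid level in the other 3 classes of both libraries.

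Of the alternative pathway, Cfp and Cfb were measured. Cfp encodes properdin, which stabilizes the C3 convertase, and was a macrophage gene at 9.63 UMIs per 10000 in normal liver and 4.83 in fibrosis (ratio 0.502, 0.478 to 0.527, and 1.32 per cell). It was 30.3 and 4.34 times the lymphoid level there, and under that level in endothelial-like and mesenchymal cells of both libraries. Per 1000 Alb UMIs, though, mesenchymal Cfp stood above lymphoid Cfp, at 7.45 against 3.19 in normal liver and 243 against 102 in fibrosis. Endothelial-like Cfp, at 3.44 and 98.1, lay within counting error of the lymphoid values. Cfb encodes factor B, the convertase's protease. Its level in hepatocyte-like cells was 1.23 and 0.651 (ratio 0.531, 0.398 to 0.701, and 1.13 per cell, or 0.266 against the deeper cluster), and in mesenchymal cells 0.432 and 0.204 (ratio 0.472, and 0.969 per cell).

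The terminal components fell into C6, a macrophage gene here, and C8 and C9, which followed the hepatocyte signal. C6 in macrophage-like cells was 4.70 in normal liver and 1.95 in fibrosis (ratio 0.415, 0.386 to 0.446, and 1.09 per cell), which is 17.3 and 3.09 times the lymphoid level. C8a in hepatocyte-like cells was 6.22 and 1.58 (ratio 0.254, 0.214 to 0.301). C8b stood at 2.69 and 0.982 (ratio 0.365, 0.291 to 0.454). These genes encode chains of the C8 complex that inserts into the membrane, and C8g encodes its remaining chain. C8g stood at 4.46 and 1.83 (ratio 0.410), and C9, the pore-forming unit, at 4.32 and 1.87 (ratio 0.433). All 4 were also lower per cell, at 0.542, 0.778, 0.873 and 0.922. In the fibrosis library, 3 of the 146 hepatocyte-like cells held 32.6 to 38.4% of the UMIs of each of these 4 genes, so the levels rest on few cells.

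C8a (chr4:104815679-104876398, minus strand) and C8b (chr4:104766317-104804548, plus strand) are neighbours in GRCm38. The 250 bases before their RefSeq starts are shown, for C8a chr4:104876399-104876648 (minus strand) and for C8b chr4:104766067-104766316 (plus strand), build GRCm38.p6. Both genes were highest in hepatocyte-like cells in both libraries, and each window lies wholly before the GENCODE gene. Both also hold the letters searched, which not every member's window does. Capitals mark GTTAAT, which occurs in sites of the hepatocyte factor HNF1, 107 bases before the start of C8a on the same strand and 206 bases before that of C8b on the opposite strand.
C8a: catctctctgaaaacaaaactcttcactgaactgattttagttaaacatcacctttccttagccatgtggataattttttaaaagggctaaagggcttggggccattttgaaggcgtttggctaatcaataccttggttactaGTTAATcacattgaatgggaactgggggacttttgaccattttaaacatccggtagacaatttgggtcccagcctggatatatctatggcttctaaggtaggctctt
C8b: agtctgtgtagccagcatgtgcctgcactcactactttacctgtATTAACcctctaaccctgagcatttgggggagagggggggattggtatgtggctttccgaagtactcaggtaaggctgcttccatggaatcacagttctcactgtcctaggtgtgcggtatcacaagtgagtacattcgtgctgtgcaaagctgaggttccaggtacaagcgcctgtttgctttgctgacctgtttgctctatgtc
Searched on both strands, these letters are present in 4 of the 9 hepatocyte-highest members with an entry (C4bp, C8a, C8b and Cfhr2) and in 6.43% of all 32851 windows. Here too members were counted by any window and the share by single windows. The C8g, C9, Masp2, Mbl1 and Mbl2 windows do not hold them.

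RNA of the liver-secreted members kept a similar proportion to albumin across the 4 classes and lymphoid cells of a library. Over C8a, C8b, C8g, C9, Mbl1, Mbl2, Masp2, Cfi, C4bp and Cfhr2 (10 genes), UMIs per 1000 Alb UMIs lay between 2.57 and 12 in the normal and between 2.72 and 37.2 in the fibrosis library. For each gene the highest of 5 classes (the 4 classes and lymphoid cells) exceeded the lowest by 1.06 to 1.70 times in the normal and by 1.31 to 2.41 times in the fibrosis library. Mbl2 illustrates the difference between libraries, with 6.53 per 1000 Alb UMIs in normal hepatocyte-like cells and 37.2 in fibrosis lymphoid cells as its extremes. Between the libraries the proportion was not kept for every gene: in macrophage-like cells Mbl2 went from 8.74 to 21.3 per 1000 Alb UMIs and C4bp from 8.34 to 18.3. Cholangiocyte-like cells departed from this in both libraries, and in each 9 of the 10 genes lay below the lowest of the 5 classes. Their Mbl2 was 4.08 UMIs per 1000 Alb UMIs in normal liver (lowest of the 5, 6.53) and 0.952 in fibrosis (21.3), and their C8a 3.04 (7.88) and 0.317 (7.0). The exception was Cfi, which lay above the 5 classes in normal liver at 10.7 and within their range in fibrosis at 15.9. For Serping1 the classes differed 52.6 times in normal liver and 230 times in fibrosis, with mesenchymal cells highest at 304 and 2087 per 1000 Alb UMIs. For C3 the spread was 22.8 and 83.7 times, and for Cfb 6.58 and 22.2 times, again with mesenchymal cells highest.

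**Figure D2:**
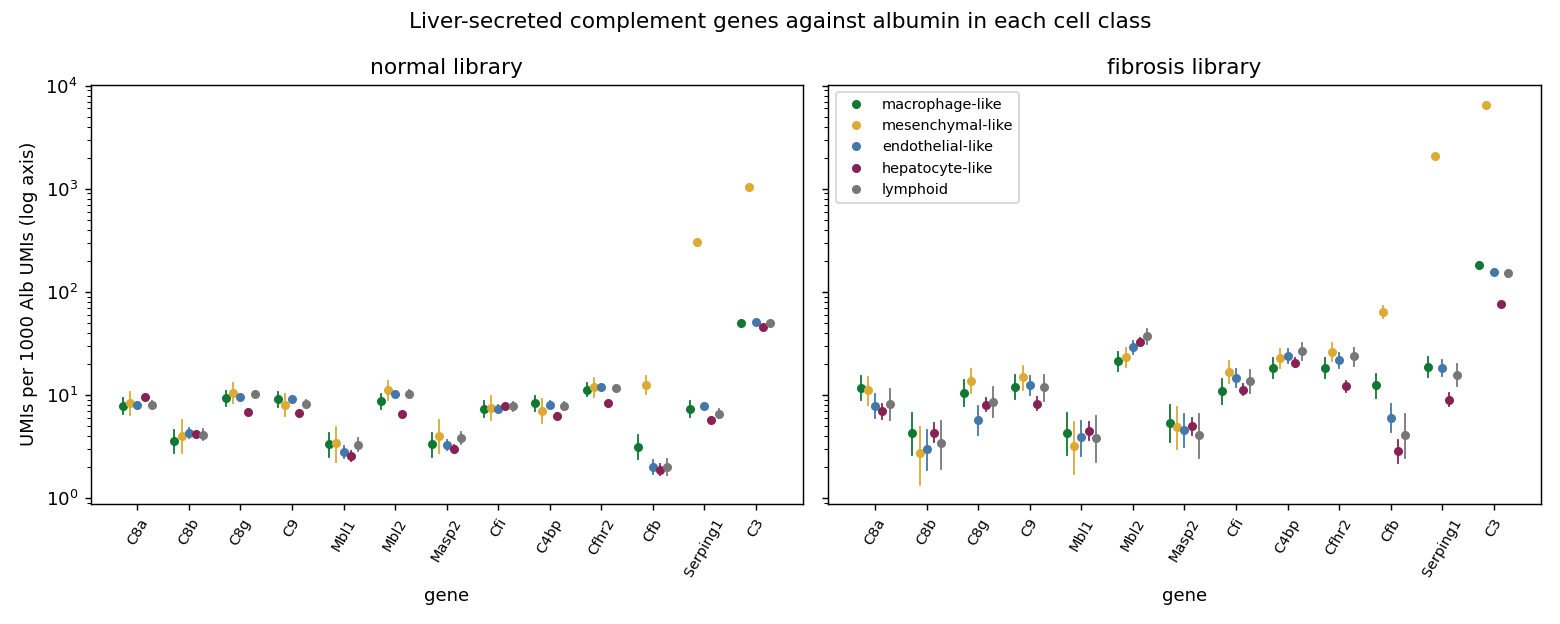
UMIs per 1000 Alb UMIs (log axis) for 13 complement genes in the normal and fibrosis libraries, coloured by cell class, with 95% counting intervals. The classes overlie each other for the 10 genes from C8a to Cfhr2 (highest over lowest at most 1.70 in normal and 2.41 in fibrosis) and separate for Cfb, Serping1 and C3.

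Soluble inhibitors had 3 kinds of source. Serping1 encodes the C1 inhibitor, which blocks C1r, C1s and the MASPs, and stood at 10.5 UMIs per 10000 in normal and 6.64 in fibrosis mesenchymal cells (ratio 0.632, 0.604 to 0.661, and 1.30 per cell). It was 15.9 and 38.5 times the lymphoid level there and found in 197 of 210 normal and 525 of 567 fibrosis cells. In hepatocyte-like cells Serping1 was 3.73 and 2.05 (ratio 0.549, and 1.17 per cell, or 0.268 against the deeper normal cluster). Cfi encodes factor I, which degrades C3b and C4b, and its hepatocyte-like level was 5.03 and 2.56 (ratio 0.510, 0.442 to 0.585, and 1.09 per cell, or 0.233 against the deeper cluster). Cfi also exceeded the lymphoid level in cholangiocyte-like cells, at 1.08 and 1.11, by 1.39 times in normal liver and 7.40 times in fibrosis. C4bp, a cofactor of factor I, stood at 4.03 and 4.68 in hepatocyte-like cells (ratio 1.16, 1.03 to 1.30). In fibrosis 3 cells held 39.3% of its UMIs, against 7.65% in normal liver. Without the 3 leading cells of each library the C4bp ratio was 0.988, and against the deeper normal cluster 0.854. Cfhr2 stood at 5.40 and 2.76 (ratio 0.511, 0.446 to 0.584, and 1.09 per cell, or 0.257 against the deeper cluster). Clu encodes clusterin, which keeps terminal complexes soluble. Of the 4 classes it was highest in hepatocyte-like cells, at 14.4 and 16.2 (ratio 1.12, and 0.863 without the 3 leading cells, which held 45.4% of its UMIs in fibrosis). Against the deeper normal cluster its level was not past 2-fold either way. Cholangiocyte-like cells reached 164 and 226, which is 52.2 and 85.1 times the lymphoid level.

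Of the membrane regulators, Cd55 and Cd59a were mainly endothelial. Cd55, the decay-accelerating factor that dissolves convertases, stood at 9.79 in normal and 11.6 in fibrosis endothelial-like cells (ratio 1.18, 1.15 to 1.21), against 3.39 and 5.33 in lymphoid cells. Cd59a, which blocks the pore, stood at 3.71 and 3.35 (ratio 0.904, 0.868 to 0.941, and 1.32 per cell), which is 5.46 and 4.27 times the lymphoid level. Cr1l, the murine Crry that inactivates C3b and C4b, was spread over all classes, at 1.08 and 0.844 in endothelial-like cells (ratio 0.778, and 1.14 per cell) and 0.957 and 0.850 in lymphoid cells. Its endothelial place in the ranking thus rested on a level 1.13 times the lymphoid one in normal liver and 0.993 times in fibrosis. Per 1000 Alb UMIs endothelial-like Cr1l stood above lymphoid Cr1l, at 17.5 against 9.58 and 157 against 77.6. Mesenchymal cells were higher still on that measure, at 24.1 and 207, so the measures differed. Near copies (Cd55b, Cd59b, and Cr2 for Cr1l) leave the split of reads uncertain.

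In vessel endothelial-like cells, 578 normal and 680 fibrosis, Cd55 went from 5.97 to 10.7 (ratio 1.80, 1.72 to 1.88) and Masp1 from 1.21 to 3.41 (ratio 2.82, 2.57 to 3.11). The clusters behind these values were unlike. The normal cells lay in a cluster of 411 led by Nrg1 and Gja5, with 1 vessel and 1 LSEC marker among its leading genes, and in one of 167 led by Mmrn1 and Ccl21a, while the fibrosis cells lay in 1 cluster led by Adgrg6 and Fbln2. Cd55 was 6.85 in the larger and 4.28 in the smaller normal cluster, and Masp1 1.13 and 1.36, so both lay below the fibrosis cluster. In LSEC-like cells, 1725 and 815, Cd55 was 11.6 and 12.4 (ratio 1.07, 1.04 to 1.10) and Masp1 2.98 and 3.47 (ratio 1.17, 1.10 to 1.23). Whether these ratios differ between the endothelial types beyond the variation between mice cannot be tested with 1 library each.

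Receptor genes were higher in fibrosis macrophage-like cells, on either scale. C3ar1, the receptor of C3a, stood at 1.67 UMIs per 10000 in normal liver and 4.31 in fibrosis (ratio 2.57, 2.33 to 2.85, and 6.78 per cell). C5ar1, the receptor of C5a, stood at 0.427 and 1.30 (ratio 3.04, 2.51 to 3.72, and 8.01 per cell). Their lymphoid ratios were 9.93 and 7.86, but the lymphoid levels stayed low: macrophage-like cells held 46.1 and 12 times the lymphoid C3ar1 and 23.5 and 9.11 times the lymphoid C5ar1. Neutrophil-like cells held C5ar1 at 2.71 and 2.46, and fibrosis monocyte-like cells at 1.0.

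Cd93, first described as a C1q receptor and known from endothelium and myeloid cells, had the largest ratio of the members in macrophage-like cells. There it stood at 0.659 in normal liver and 4.94 in fibrosis (ratio 7.49, 6.44 to 8.77), while the lymphoid levels were 0.798 and 2.45 (ratio 3.07). Macrophage-like cells were thus at 0.826 times the lymphoid level in normal liver and 2.02 times in fibrosis. Thinned to 1000 UMIs, 4.50% of normal (2.84 to 6.73) and 36.4% of fibrosis macrophage-like cells (32.9 to 40.1) had a Cd93 UMI, beside 5.71% and 16.8% of lymphoid cells. In endothelial-like cells Cd93 stood at 4.84 and 7.73 (ratio 1.60, 1.55 to 1.65). Cr2, complement receptor 2 of B cells, was found at 1.51 and 1.79 in B-cell-like cells and at 0.0234 and 0.0352 in NK/T-cell-like cells. None of the 4 classes came above 0.0522 times the lymphoid level of Cr2.

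Counted over the members with at least 20 UMIs in a class over both libraries, lower levels prevailed in fibrosis. In macrophage-like cells 4 of 34 members were at least 2-fold higher (7.23% of all 12139 genes) and 18 at least 2-fold lower (10.6%). In mesenchymal cells 7 of 34 were higher (8.5% of 13402 genes) and 15 lower (8.19%). In endothelial-like cells 8 of 35 were higher (6.25% of 13416 genes) and 14 lower (10.0%). In hepatocyte-like cells 3 of 33 were higher (17.2% of 9847 genes) and 7 lower (7.11%). The median ratio of the members was 0.455, 0.597, 0.707 and 0.660 in these classes, against 0.975, 1.05, 1.02 and 1.24 over all genes tested.

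Many of these members were also past 2-fold the same way in lymphoid cells, as were part of all genes. Of the 18 lower members in macrophage-like cells 13 were, beside 46.6% of the 1289 genes lower in that class, and the other 5 were C1s1, C4b, C6, Fcna and Clu. Of the 15 in mesenchymal cells 11 were (43.8% of the lower genes), leaving C2, C4b, Fcna and Colec11, and of the 14 in endothelial-like cells 13 were (57.3%), leaving C4b. In hepatocyte-like cells 4 of 7 were (37.9%), leaving C1s1, C4b and Colec12. All higher members were also past 2-fold higher in lymphoid cells, apart from Cr2 in endothelial-like cells, which had 6 and 22 UMIs there. Of all higher genes 34.6% were in macrophage-like, 32.0% in mesenchymal, 52.1% in endothelial-like and 14.3% in hepatocyte-like cells. With the lymphoid level subtracted, fewer genes could be counted. Then 3 of 15 members were higher in macrophage-like cells (27.0% of all genes) and 7 lower (40.5%), and in mesenchymal cells 1 of 17 was higher (19.8%) and 7 lower (35.0%). In endothelial-like cells 0 of 9 were higher (18.9%) and 5 lower (28.3%), and in hepatocyte-like cells 1 of 30 was higher (49.3%) and 16 lower (17.4%). Per cell, more genes were at least 2-fold higher in fibrosis: 9 of 34 members in macrophage-like cells (73.0% of all genes), 11 of 34 in mesenchymal (59.9%) and 13 of 33 in hepatocyte-like cells (69.4%), while 11 (3.34%), 9 (3.81%) and 0 (1.52%) were lower. Against the deeper normal cluster the hepatocyte counts per cell turned, with 7 of 31 members higher (21.9% of all genes) and 17 lower (11.9%). In endothelial-like cells, where depth differed least over whole classes, 12 of 35 were higher per cell (18.3%) and 13 lower (6.31%).

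**Figure D3:**
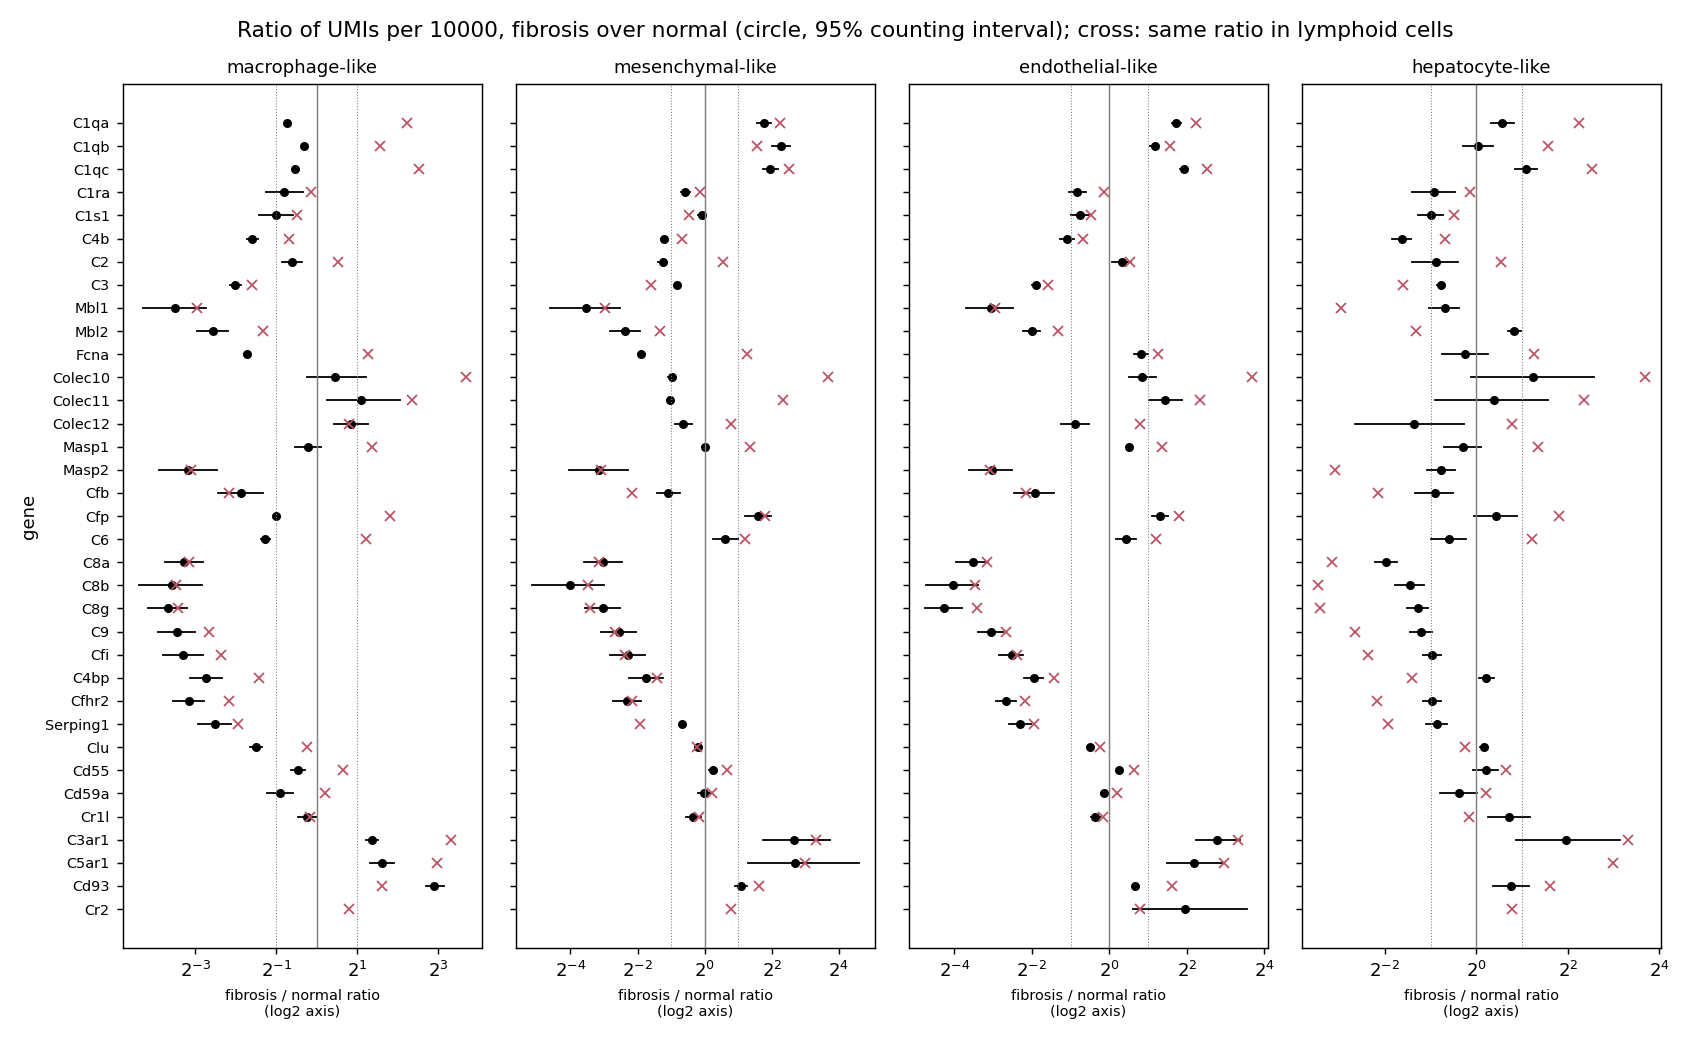
Ratio of UMIs per 10000, fibrosis over normal (log2 axis), for each complement gene in the 4 cell classes: circles with 95% counting intervals, and crosses for the same gene in lymphoid cells. Dotted lines mark 2-fold. Circles and crosses lie together for C8a, C8b and Masp2 outside hepatocyte-like cells (Masp2 0.111 to 0.122 against 0.117), and apart for Fcna in macrophage-like (0.301 against 2.40) and mesenchymal cells (0.270).

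Sub-clusters showed which cells carried the macrophage members. Kupffer-cell-like sub-clusters held 84 normal and 245 fibrosis cells, and recruited-macrophage-like sub-clusters 46 and 80. The other normal cells of the class lay in unnamed sub-clusters (133 and 148 cells) and in sub-clusters with LSEC (48) or cycling markers (30). Those of fibrosis lay in an unnamed sub-cluster (120) and in ones with monocyte (80), cDC2 (73), cycling (64) or LSEC markers (57). In Kupffer-cell-like cells C6 was 5.92 in normal liver and 5.87 in fibrosis (ratio 0.991, 0.889 to 1.11, and 1.26 per cell), against 0.415 in the whole class. Cfp was 12.1 and 9.81 (ratio 0.811, and 1.03 per cell), C4b 3.27 and 2.92 (ratio 0.894, and 1.14 per cell) and C1qa 50.3 and 41.0 (ratio 0.814, and 1.04 per cell). The ratios of these 4 genes were thus closer to 1 within the Kupffer-cell-like cells than in the class, whereas that of C1qb, at 36.1 and 24.9 (ratio 0.688, 0.657 to 0.720), was not. Fcna, at 17.9 and 11.7 (ratio 0.650, 0.609 to 0.695), and C3ar1, at 1.79 and 2.33 (ratio 1.31, 1.08 to 1.59), followed the same pattern. Other members moved away from 1 or across it. Masp1 was 0.0699 and 0.342 (ratio 4.90, 2.02 to 15.4, against 0.858 in the class) and Cd55 0.657 and 1.59 (ratio 2.43, 1.79 to 3.36, against 0.723), both below the lymphoid level of their library. Colec12 was 0.349 and 0.872 (ratio 2.50, 1.65 to 3.94, against 1.78), above lymphoid levels of 0.0610 and 0.105. C6 in recruited-macrophage-like cells was 0.775 and 0.0943, and in the normal cells 3 cells held 86.4% of its UMIs. C4b was 0.846 and 0.220 there (ratio 0.260, 0.154 to 0.449, and close to 1 per cell). C1qa was 40.3 and 28.5 there (2.73 per cell), so C1q was a gene of both macrophage types and C6 mainly of the Kupffer-cell-like ones. The recruited-macrophage-like sub-clusters were unlike. The normal one was led by Cx3cr1 and Mmp13 (median 5766.5 UMIs) and the fibrosis one by Mfge8 and Atp6v0d2 (median 23001). Ratios between them, here and below, thus compare unlike cells. With the Kupffer-cell-like cells alone, 6 of 31 members were at least 2-fold higher (9.56% of all genes) and 9 lower (4.56%).

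Cd93 had a larger ratio in the Kupffer-cell-like cells than in the class. In Kupffer-cell-like cells it had 3 UMIs in 84 normal cells (0.0419 per 10000) and 309 in 245 fibrosis cells (1.16), a ratio of 27.7 (9.40 to 135), while the lymphoid level in fibrosis was 2.45. In recruited-macrophage-like cells it stood at 2.19 and 4.6 (ratio 2.11, 1.63 to 2.77). C5ar1 stood at 0.349 and 0.760 in Kupffer-cell-like and at 0.811 and 1.32 in recruited-macrophage-like cells.

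**Figure D4:**
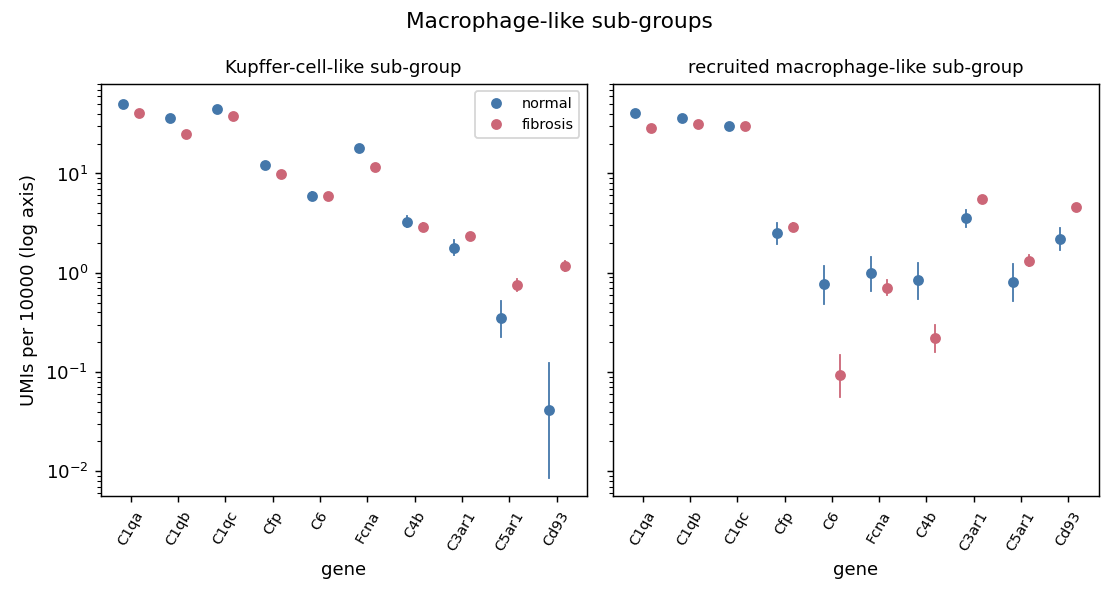
Levels (UMIs per 10000, log axis) of 10 complement genes in Kupffer-cell-like (84 normal and 245 fibrosis cells) and recruited-macrophage-like sub-clusters (46 and 80 cells), with 95% counting intervals. C6 and Fcna stand higher in the left panel in both libraries, C3ar1 and Cd93 in the right panel.

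Within the mesenchymal class, 3 cell types were compared: the HSC/MF-like clusters (122 normal and 387 fibrosis cells) and the PF-like and mesothelial-like sub-clusters. Sub-clusters with LSEC (46), cycling (9) or no leading markers (68) held the other normal cells. Those of fibrosis had cycling (95), vessel endothelial (71), recruited-macrophage (67) or LSEC markers (60) or no name (29), and some of these lay within the HSC/MF-like cluster. Col1a1 in the HSC/MF-like clusters was 1.02 in normal liver and 27.7 in fibrosis.

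In these HSC/MF-like clusters Colec11 stood at 16.5 and 6.46 (ratio 0.390, 0.372 to 0.410, and 0.80 per cell). Colec10 stood at 8.12 and 3.40 (ratio 0.418, 0.390 to 0.448, and 0.857 per cell), and Masp1 at 14.2 and 11.1 (ratio 0.786, 0.749 to 0.826, and 1.61 per cell). The levels of Colec11, Colec10 and Masp1 were thus all lower in fibrosis, and Masp1 was higher only per cell. Median UMIs per cell in these clusters were 10405.5 in normal liver and 19905 in fibrosis, and a ratio per cell includes that difference. Fcna stood at 8.33 and 1.67 (ratio 0.200, 0.185 to 0.217, and 0.411 per cell), against lymphoid levels of 0.477 and 1.15. C1qa, set beside it as a macrophage gene, was 1.26 and 3.49 in the same clusters, against 43.9 and 26.2 in macrophage-like cells, where Fcna was 13.9 and 4.18. Serping1 stood at 5.59 and 5.56 (ratio 0.995, 0.922 to 1.07, and 2.04 per cell).

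In PF-like cells, 43 normal and 79 fibrosis, C3 was 38.4 and 6.44 (ratio 0.168, 0.154 to 0.183, and 0.338 per cell), and Serping1 18.0 and 9.87 (ratio 0.547, and 1.10 per cell). Colec12 was 3.00 and 2.09 there (1.40 per cell), its highest place among the 3 types in both libraries. Masp1 went from 0.886 to 3.89 (ratio 4.39, 3.05 to 6.53), and 3 of the normal cells held 71.0% of its UMIs. C7, the terminal component between C6 and C8 and no member of the list, had 124 UMIs in the normal and 3 in the fibrosis PF-like cells.

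Mesothelial-like cells, 44 normal and 48 fibrosis, had a higher C3 level than any of the 4 classes. C3 was 120 UMIs per 10000 in normal liver and 221 in fibrosis (ratio 1.84, 1.79 to 1.89, and 2.64 per cell). C1s1 was 7.05 and 19.9 (ratio 2.82, 2.53 to 3.16), C1ra 3.95 and 5.95 (ratio 1.51, 1.28 to 1.77) and Cd55 2.05 and 6.23 (ratio 3.05, 2.49 to 3.76). C2 went the other way, at 9.01 and 3.88 (ratio 0.430, 0.374 to 0.495, and 0.619 per cell). C3 thus had opposite ratios in mesothelial-like and PF-like cells, and the difference was not tested, with 1 library each. Mesothelial-like cells were 44 of 210 normal and 48 of 567 fibrosis mesenchymal cells, beside the class ratio of 0.562. Some of the C1q ratios in these small groups rest on few cells: in fibrosis, 3 mesothelial-like cells held 54.2% of the C1qa UMIs.

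**Figure D5:**
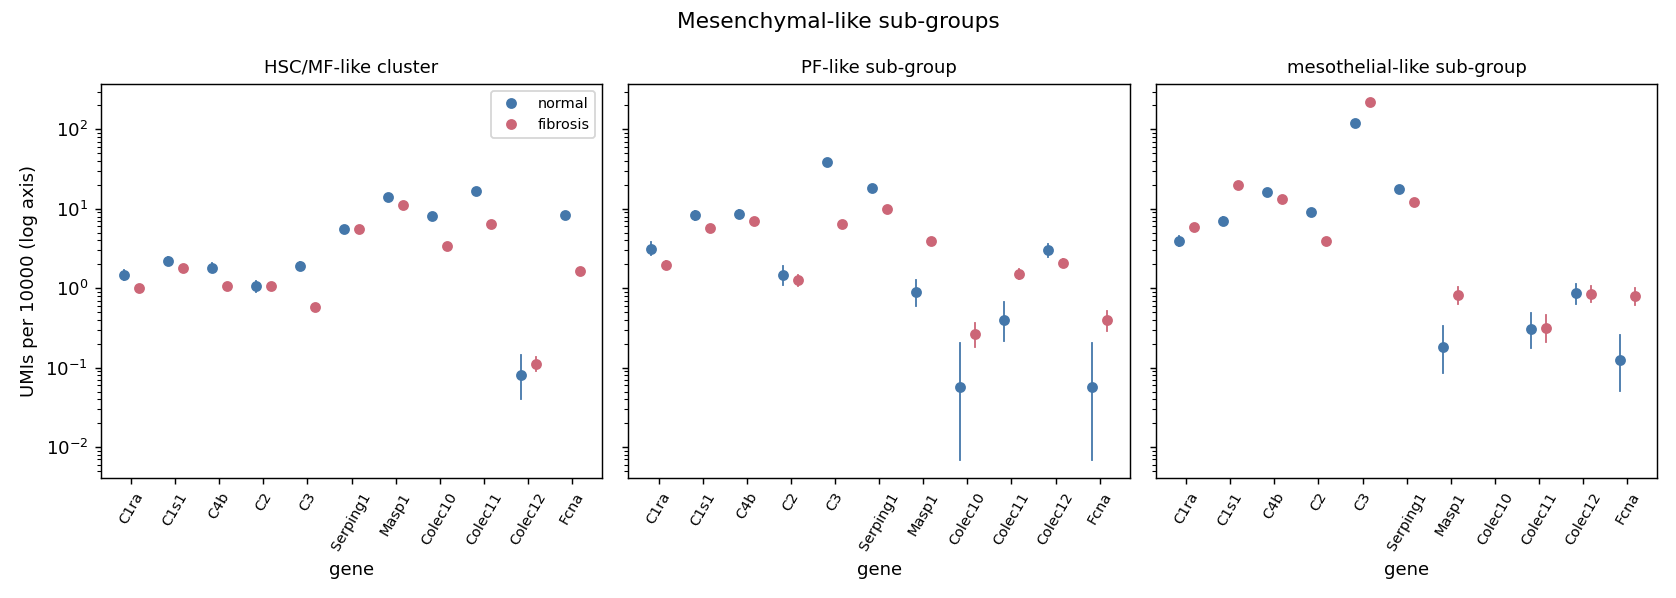
Levels (UMIs per 10000, log axis) of 11 complement genes in HSC/MF-like clusters (122 normal and 387 fibrosis cells) and in PF-like (43 and 79) and mesothelial-like sub-clusters (44 and 48), with 95% counting intervals. Colec10, Colec11, Masp1 and Fcna stand highest in the HSC/MF-like clusters, and C3 reaches 120 and 221 in mesothelial-like cells.

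In hepatocyte-like cells the normal class held a shallow cluster of 596 cells (median 1304 UMIs) and a deeper one of 133 cells (median 6832), and the fibrosis class 1 cluster of 146 cells (median 2036). The methods removed hepatocytes by low-speed centrifugation. Whether these clusters are hepatocytes that remained or barcodes with free hepatocyte RNA was not tested. Against the deeper normal cluster alone, 17 of 31 members were at least 2-fold lower (6.51% of all genes) and 8 at least 2-fold higher (41.2%). C3 was 42.2 in the deeper cluster and 17.3 in fibrosis (ratio 0.411, 0.388 to 0.434), C4b 10.9 and 2.33 (ratio 0.214) and Serping1 5.35 and 2.05 (ratio 0.383). Alb itself was 948 and 226, and 3 fibrosis cells held 34.0% of its UMIs and 42.2% of those of C3. All 8 higher members (C1qa, C1qb, C1qc, C3ar1, Cfp, Fcna, Cd55 and Cd93) stood below the fibrosis lymphoid level.

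Other genes of the pathway were taken from a list of 26, of which 23 are listed in both libraries. Of those with at least 20 UMIs, 3 of 15 were at least 2-fold higher (7.23% of all genes) and 10 lower (10.6%) in macrophage-like cells, and 4 (8.5%) and 8 (8.19%) of 18 in mesenchymal cells. In endothelial-like cells 4 of 19 were higher (6.25%) and 10 lower (10.0%), and in hepatocyte-like cells 3 of 15 were higher (17.2%) and 5 lower (7.11%). Vtn, Vsig4, Hc and Cpb2 were among the 5 with the highest levels. Vsig4, a C3b receptor of Kupffer cells, was 16.7 and 8.19 in macrophage-like cells (ratio 0.491, 0.473 to 0.509, and 1.29 per cell), but 22.6 and 23.0 in the Kupffer-cell-like cells. Vtn (vitronectin), Hc (C5) and Cpb2 (an enzyme that inactivates C3a and C5a) were hepatocyte genes, at 23.2 and 7.08, 5.11 and 1.56, and 3.02 and 2.57, and were below or within counting error of the lymphoid level in the other 3 classes.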

How the data were processed

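The data were 2 libraries of liver NPCs, 1 per condition. The authors deposited 1 matrix of raw UMI counts per library, made with Cell Ranger 3.0.1 and the mm10 genome per the submitters' processing notes. Cells with under 10% mitochondrial UMIs and more than 200 genes were kept, as in the methods. Each library was clustered on its own with scanpy 1.11.5 (2000 variable genes, 10 principal components, 20 neighbours, Leiden resolution 0.8), with the members and pathway genes left out. A cluster was named from 21 marker lists by at least 1 marker among its 10 leading genes and at least 3 raised, a sub-cluster by at least 2 and 3, and the rest remained unnamed. Scrublet called 1 doublet per library. The methods state that doublets were excluded with Scrublet, and whether this preceded deposit was not tested, so no cell was removed as a doublet.

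UMIs were summed per class. Levels have exact Poisson intervals, ratios exact conditional intervals and shares exact Clopper-Pearson intervals, all 95%. With 1 library per condition there is no test. A member was counted past 2-fold where a class held at least 20 UMIs of it over both libraries, and for the highest class at least 20 UMIs over the 4 classes of 1 library. A class without a UMI of a gene was set to a floor of 3 counts in a ratio. The ratios and intervals were tested on simulated data. The text names every member, the 5 pathway genes with the highest level in a class (1 of them is not reported here), and Alb and Col1a1 as measures of free RNA or of cell type. C7 was chosen after its values were seen, as were both motifs. Members and lists were chosen with earlier results of these data known. Positions came from the GENCODE annotation of GRCm38, and 25 members had an entry in the RefSeq promoter table. Alternatives were UMIs per cell, other mitochondrial limits, resolutions, folds and UMI minimums, removal of high doublet scores or of named sub-clusters, subtraction of the lymphoid level, and thinning to 2000 UMIs or none.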

Additional observations from a re-analysis of the deposited data

Results flagged for a closer look

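Colec11 was singled out because its ratio of fibrosis over normal was on opposite sides of 1 between classes: 2.13 in macrophage-like cells (1.19 to 4.12) and 2.71 in endothelial-like cells (2.03 to 3.67), but 0.486 in mesenchymal cells (0.463 to 0.510). The difference between classes was not tested, as each condition had 1 library. The macrophage-like and endothelial-like levels of Colec11 (0.0496 and 0.105, and 0.0477 and 0.129 UMIs per 10000) were below the lymphoid levels of 0.0511 and 0.260. Per 1000 Alb UMIs they were not set apart from lymphoid cells. Macrophage-like and endothelial-like cells held 0.747 and 0.771 against 0.512 in normal liver, and 23.1 and 24.1 against 23.7 in fibrosis, with overlapping intervals.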

How the results depend on the processing

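No paired analysis was possible because each condition had 1 library and no result came from a test. Of 128 counts under alternatives, 100 remained within 1.5 times the reported count and 28 did not. The number of members highest in each class remained within that range under each alternative run. The share of all genes past the same fold stands in brackets. Per cell, 9 members were at least 2-fold higher (73.0%) and 11 lower (3.34%) in macrophage-like, 11 (59.9%) and 9 (3.81%) in mesenchymal, and 13 (69.4%) and 0 (1.52%) in hepatocyte-like cells. With the lymphoid level subtracted, 7 were lower in macrophage-like cells (40.5%), 1 was higher (19.8%) and 7 lower (35.0%) in mesenchymal cells, 0 were higher (18.9%) and 5 lower (28.3%) in endothelial-like cells, and 1 was higher (49.3%) and 16 lower (17.4%) in hepatocyte-like cells. At a fold of 3, 2 were higher in macrophage-like (3.61%) and 5 in endothelial-like cells (2.87%), and 1 was higher (5.35%) and 2 lower (3.04%) in hepatocyte-like cells. At a fold of 1.5, 6 were higher (35.2%) and 17 lower (13.8%) in hepatocyte-like cells. A mitochondrial limit of 5% left 5 higher in endothelial-like cells (6.7%) and no normal hepatocyte-like class, so that class has no value there. Without a mitochondrial filter (15.5%), at resolution 1.5 (15.8%), or with at least 50 UMIs (16.7%), 1 was higher in hepatocyte-like cells. Among alternatives chosen after seeing the data, Kupffer-cell-like sub-clusters alone left 9 lower (4.56%), and hepatocyte-like cells without the shallow normal cluster had 8 higher (41.2%) and 17 lower (6.51%), or 7 (21.9%) and 17 (11.9%) per cell.

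Of 501 single ratios under alternatives, 202 stayed within the counting interval of the reported ratio, 293 moved out of it and 6 reversed. On the other side of 1 lay 70, of which 38 were on the per-cell scale of whole classes. The 6 reversed ones had been past 2-fold: C1s1 per cell in macrophage-like (1.30) and hepatocyte-like cells (1.06), C6 per cell in macrophage-like cells (1.09), and, with the lymphoid level subtracted, Cfb in macrophage-like (1.06), Cd93 in mesenchymal (0.474) and C1qc in hepatocyte-like cells (0.0817). UMIs per cell were higher in fibrosis macrophage-like cells, which gives both macrophage values on the per-cell scale by construction. The hepatocyte-like value rests on the shallow normal cluster, without which C1s1 per cell was 0.242. The cause of the others was not tested. Hepatocyte values rest on 146 fibrosis cells with a median of 2036 UMIs.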
